A study of Mus musculus with 6 samples.

Results

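The small heat shock proteins of muscle and the co-chaperone gene Bag3 were followed in hind limb skeletal muscle of mice deficient in the laminin alpha 2 chain and of wild type mice. The members were chosen by gene symbol, as every probe set of the array annotated to Hspb1, Hspb2, Hspb3, Hspb6, Hspb7, Hspb8, Cryab or Bag3. All 8 genes were on the array, with 15 of its 45101 probe sets, and 14 of the 15 and all 8 genes passed the filter on low values. Each group held 3 mice, all 4 weeks old, and RNA from all skeletal muscle of a mouse's hind limbs went onto its own Affymetrix array. The labels describe the groups only as wild type and as laminin alpha 2 chain deficient. The sources used here name neither the altered allele nor the strain or sex, and no treatment. The laminin alpha 2 chain is a subunit of the laminin that ties the muscle fibre to its basement membrane.

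Small heat shock proteins share an alpha-crystallin domain and hold unfolding proteins in a soluble state without using ATP. In muscle they bind the Z-disc, desmin filaments, actin, titin and filamin C, structures that are strained with every contraction. Bag3 joins Hspb8 to the Hsp70 machine and leads damaged filamin C into chaperone-assisted selective autophagy. Heat shock factors, activated when proteins unfold, induce several genes of the family.

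Values are signal units, linear and scaled to a common level per array, given for each of the 3 replicates of a group and as mean ± SD (n = 3). A log2 fold change is the deficient mean less the wild type mean of log2(signal + 16), given with a 95% interval, and each adjusted p comes from limma over 13104 genes with Benjamini-Hochberg adjustment. A gene was called at an adjusted p under 0.05. Precision is limited by having 6 arrays.

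Facts of the whole series bear on these values. Lama2 read 326.2 to 428.7 in the wild type arrays and 31.1 to 140.4 in the deficient arrays. Transcripts of the Y-linked gene Eif2s3y were present in replicates 1 and 2 of both groups (414.6 to 573.7) and near background in replicate 3 of both (10.7 and 9.1). Deficient replicate 1 held both these and Xist transcripts (414.6 and 396.3). Hair follicle transcripts were summed over 6 markers at 1790.9 and 818.7 in wild type replicates 1 and 2, at 98.6 in wild type replicate 3, and at 65.3 to 77.6 in the deficient arrays. The actin control's ratio of 5 prime to 3 prime signal was 1.04 to 1.15 in wild type and 0.51 to 0.819 in deficient arrays, while that of the Gapdh control overlapped. All 10 skeletal muscle markers were above the filter, and their summed signal overlapped between wild type (70853.9 to 76789.5) and deficient muscle (58146.9 to 76305.3). The part of these differences in the results below was not tested, except where values without a library or within the arrays with Y-linked transcripts are given.

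Of the 8 genes, Hspb7 rose and Hspb6 fell in deficient muscle, and the remaining 6 did not pass. This count of 2 stands beside 2.69% of all genes tested that were called, 1.25% higher and 1.44% lower. Wild type and deficient values were fully separated in 3 of the 8, Hspb7, Hspb6 and Hspb2, beside 24.7% of all genes, and 3 of the 8 had an unadjusted p under 0.05, beside 18.9% of all genes. The median log2 fold change of the 8 was -0.040, beside 0.024 over all genes tested, with 4 genes above 0 and 4 below.

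**Figure D1:**
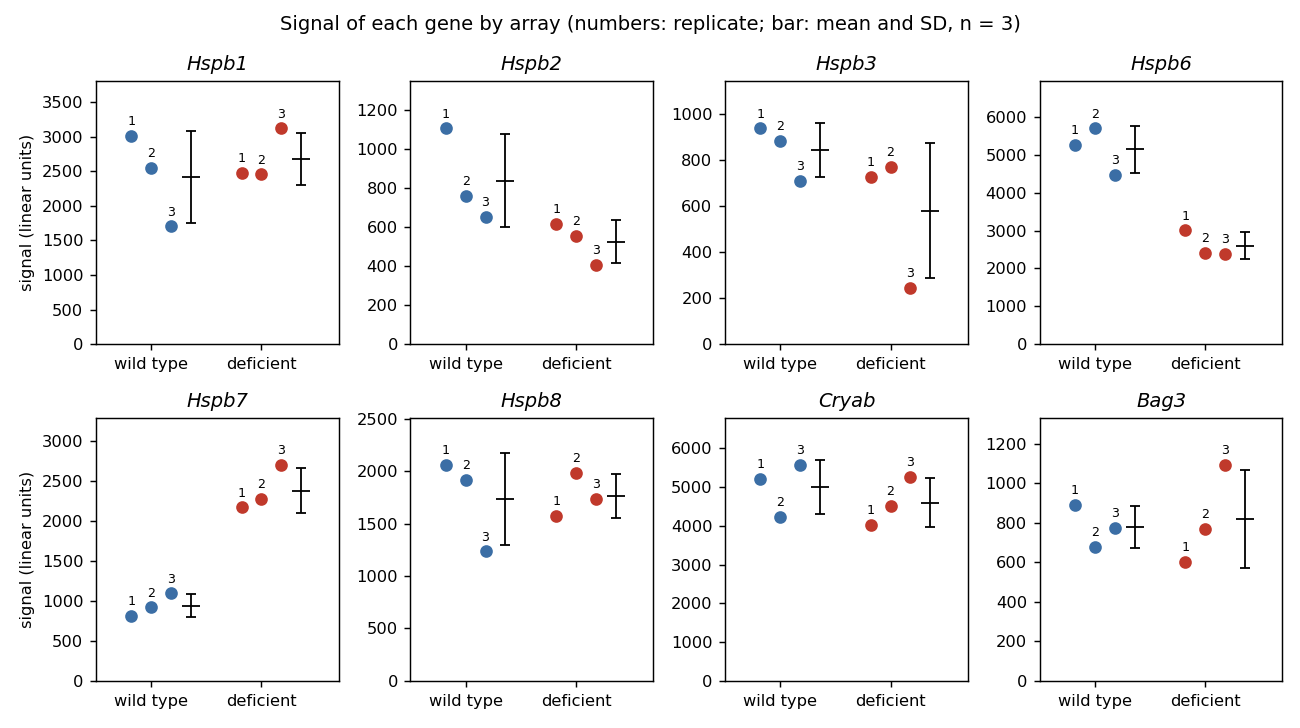
Signal in linear units (vertical axis, from 0) of the brightest probe set of each of the 8 genes, by group, with the replicate number above each point and the mean and SD (n = 3) as a black bar. The 3 deficient arrays lie above every wild type array for Hspb7 and below every wild type array for Hspb6 and Hspb2, and the groups overlap for the other 5 genes.

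Hspb7, the cardiovascular heat shock protein, is a chaperone of heart and skeletal muscle that binds filamin C. It read 814.3, 919.8 and 1094.5 in the wild type arrays and 2170.3, 2271.3 and 2697.3 in the deficient arrays. Every deficient array stood above every wild type array, and the spread within each group was small against the gap between them. Its mean rose from 943 ± 142 to 2380 ± 279.7 (n = 3 each), a log2 fold change of 1.32 (SE 0.17, interval 0.94 to 1.71) or 2.51-fold, with an adjusted p of 0.00646 by limma. It ranked 40 by p among the 13104 genes and 138 by the size of the rise.

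Hspb7 was read by 3 probe sets, which do not carry the rise equally. The second, 1421290_at, read 203.5, 394.9 and 372.6 in wild type and 832.9, 480 and 750.5 in deficient arrays, and its groups did not overlap either. The third and dimmest, 1421289_at, read 40, 185.1 and 76.6 in wild type and 215.6, 65.8 and 191.6 in deficient arrays, where deficient replicate 2 lay inside the wild type range. In a limma fit over 27026 probe sets, of which 1.41% were called, the brightest probe set of Hspb7 was called (adjusted p = 0.0088). The second had a log2 fold change of 1.07 (interval 0.42 to 1.71, adjusted p = 0.108) and the third 0.64 (interval -0.45 to 1.73, adjusted p = 0.553). Averaged over its 3 probe sets, Hspb7 lost its call, with a log2 fold change of 1.01 and an adjusted p of 0.113 by limma. The positions of the probe sets on the transcript were not analysed here.

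Hspb6, also known as Hsp20, is abundant in striated and smooth muscle and is a target of cyclic nucleotide-dependent kinases. Its single probe set read 5265.4, 5698 and 4480.7 in the wild type arrays and 3007.6, 2409.1 and 2380.9 in the deficient arrays. The highest deficient array was below the lowest wild type array by more than the SD of either group. The mean fell from 5148 ± 617 to 2599 ± 354 (n = 3 each), a log2 fold change of -0.98 (SE 0.15, interval -1.33 to -0.64), with an adjusted p of 0.0159 by limma. It ranked 81 by p and 272 by the size of the fall. The call was lost by limma when single libraries were left out. The adjusted p was then 0.0869 (wild type replicate 1 removed), 0.0837 (wild type replicate 2 removed) or 0.0669 (deficient replicate 2 removed). It was also lost without the intensity trend (0.0579), and the adjusted p ran from 0.00241 to 0.449 over all alternatives, in each of which the fold change was negative.

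The shift of Hspb7 relative to Hspb6 did not depend on how arrays were scaled against each other, but it does not show the direction of either gene alone. With arrays centred on their medians the fold changes of Hspb7 and Hspb6 were 1.28 and -1.03. With quantile normalization they were 1.41 and -0.86. Within each array, the log2 signal of Hspb7 minus that of Hspb6 was -2.67, -2.61 and -2.02 in wild type and -0.47, -0.08 and 0.18 in deficient muscle. The difference thus shifted by 2.31 (wild type -2.43 ± 0.36, deficient -0.12 ± 0.33, n = 3 each), which restates the fold changes of both genes and is given without a test. Probe sets differ in their response, so the shift is meaningful here and the level of the difference is not. Among the arrays with Y-linked transcripts (2 per group), Hspb7 differed by 1.34 and Hspb6 by -1.02 on the log2 scale, and between the 2 arrays without them by 1.29 and -0.91. Without wild type replicates 1 and 2, the arrays with hair follicle transcripts, the fold changes were 1.10 and -0.79 and both calls were lost (adjusted p = 0.292 and 0.449 by limma), with a single wild type array assumed to vary as the deficient ones do.

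**Figure D2:**
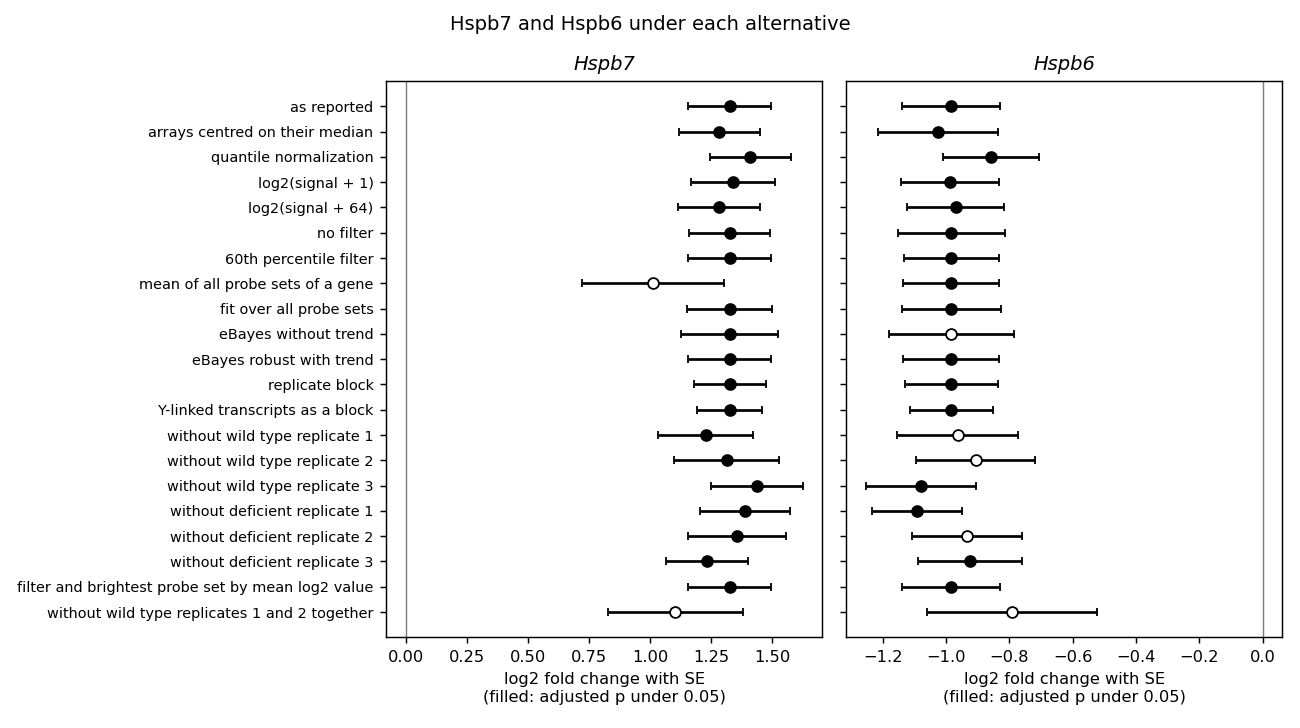
Log2 fold change of Hspb7 (left) and Hspb6 (right) with its SE (horizontal axis), as reported and under 20 alternatives (rows), with filled points at an adjusted p under 0.05. All points of Hspb7 lie above 0 and all of Hspb6 below 0, and 2 of the 20 alternatives for Hspb7 and 5 of the 20 for Hspb6 are open.

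Hspb2 and Hspb3 form a complex with each other in differentiating muscle, and Hspb2 is also known as the binding protein of the myotonic dystrophy kinase. Hspb2 read 1103.9, 757.9 and 650.6 in wild type and 615.9, 554.1 and 405.4 in deficient arrays. The groups did not overlap, but wild type replicate 3 and deficient replicate 1 lay close together. The log2 fold change was -0.64 (interval -1.18 to -0.11), and the gene did not pass (adjusted p = 0.186 by limma). With a block for arrays holding Y-linked transcripts it passed (adjusted p = 0.0454), in a fit that called 8.73% of all genes beside 2.69% as reported. Differences within arrays with and without those transcripts were -0.63 and -0.66.

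Hspb3 read 938.6, 886.1 and 711.2 in wild type and 729.6, 770.1 and 245.3 in deficient arrays. Deficient replicate 3 stood alone far below the other deficient arrays, and the other 2 deficient arrays lay inside the wild type range. The log2 fold change was -0.68 (interval -1.52 to 0.16, adjusted p = 0.366), and without deficient replicate 3 it was -0.16 (adjusted p = 0.661). The low mean of Hspb3 in deficient muscle rests on that array.

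Cryab encodes alpha B-crystallin, which is a partner of desmin and titin. It read 5213.6, 4233.5 and 5566.1 in wild type and 4021.1, 4519.8 and 5260 in deficient arrays, with wide overlap. Its log2 fold change was -0.12 (interval -0.47 to 0.23, adjusted p = 0.729), so a fall as large as that of Hspb6 lies outside the interval. A second probe set, 1416455_a_at, differed by -0.36 (interval -0.84 to 0.13), and the third, 1435837_at, was at 6.7 to 20.9 in all arrays and did not pass the filter on low values. In the RefSeq annotation of GRCm38.p6 the gene Hspb2 lies inside the span of Cryab on chromosome 9. The pair did not track each other over the 6 arrays (Pearson r = 0.0048, as a description).

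Hspb1, the mouse Hsp25, binds actin and is phosphorylated under stress. It read 3003.7, 2542.8 and 1701.3 in wild type and 2469.7, 2453.2 and 3116.7 in deficient arrays. The groups overlapped, and the lowest value was in wild type replicate 3. The log2 fold change was 0.18 (interval -0.30 to 0.66, adjusted p = 0.705), and it was 0.30 (interval -0.20 to 0.80) for the other probe set, 1425964_x_at.

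Hspb8, the partner of Bag3 in selective autophagy, read 2057.8, 1915.5 and 1235.5 in wild type and 1570.1, 1982.4 and 1738.3 in deficient arrays. Wild type replicate 3 was again the lowest. The log2 fold change was 0.050 (interval -0.42 to 0.52, adjusted p = 0.929). Its other probe sets gave -0.25 (interval -0.79 to 0.30) and 0.034 (interval -0.62 to 0.69). Bag3 itself read 889.6, 676.7 and 774 in wild type and 602.1, 768.9 and 1092.5 in deficient arrays, with a log2 fold change of 0.039 (interval -0.48 to 0.55, adjusted p = 0.952). Its lowest and its highest value were both in deficient arrays.

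**Figure D3:**
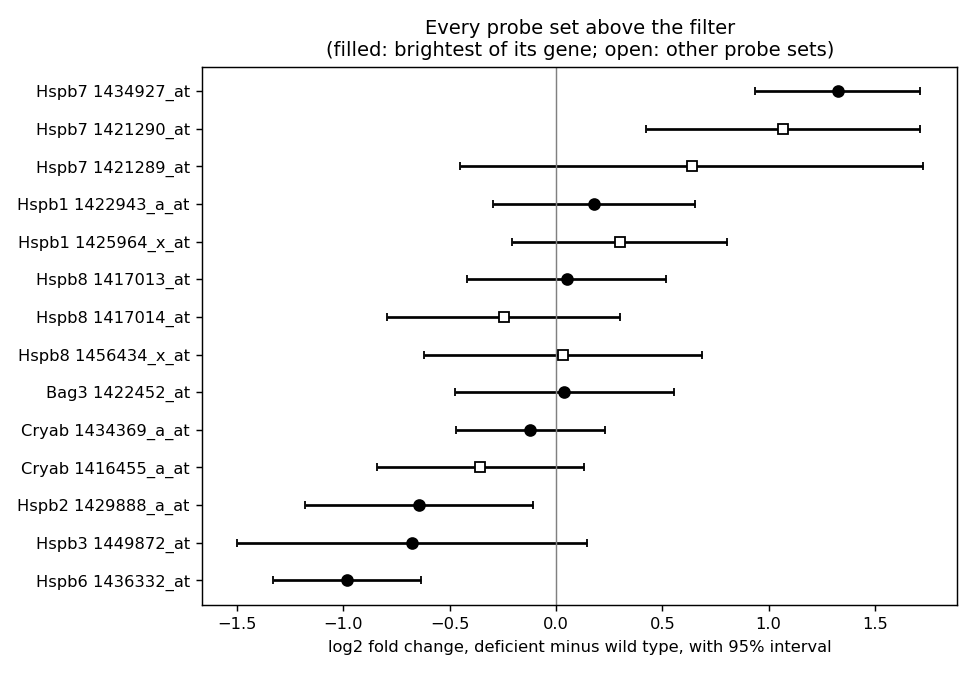
Log2 fold change with its 95% interval (horizontal axis) of the 14 probe sets that passed the filter (rows), with filled circles for the brightest probe set of a gene and open squares for the others. The intervals of Hspb6, Hspb2 and of 2 of the 3 probe sets of Hspb7 do not reach 0, and those of the other 10 probe sets do.

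Array by array, the members fell into patterns that the group labels only partly follow. Over the 6 arrays the log2 signal of Hspb6 and Hspb7 had a Pearson r of -0.98, that of Hspb2 with Hspb6 0.83, of Hspb1 with Hspb8 0.79 and of Cryab with Bag3 0.76. These are descriptions over arrays that share a group structure, and the first mainly restates the difference between groups. Hspb1, Hspb8 and their second probe sets were lowest of the wild type arrays in replicate 3. That array lacks Y-linked transcripts and had the lowest hair follicle sum of the wild type arrays (98.6 beside 1790.9 and 818.7). Deficient replicate 3 also lacks Y-linked transcripts, and it held the highest Hspb1 value of the 6 arrays (3116.7). The part of either trait was not tested. Among the arrays with Y-linked transcripts Hspb1 differed by -0.17 between groups, and between the 2 arrays without them by 0.87.

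**Figure D4:**
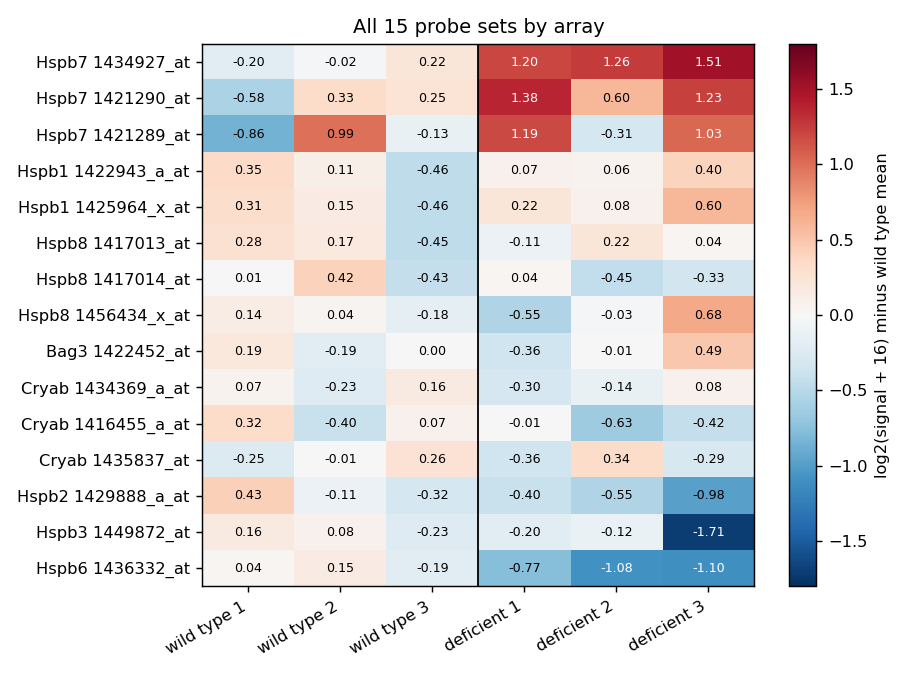
Log2(signal + 16) minus the wild type mean (colour and number) for all 15 probe sets (rows) on the 6 arrays (columns). Hspb7's brightest probe set is 1.20 to 1.51 above the wild type mean in the 3 deficient arrays, Hspb6 is 0.77 to 1.10 below it, and Hspb3 is 1.71 below it in deficient replicate 3 alone.

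The genes whose log2 profile was most like that of each member were read as a description over the 6 arrays. For Hspb6 they were Ndufab1 (Pearson r = 0.997), Chchd3 (0.997) and B3galnt2 (0.996), the first a subunit of respiratory complex I and the second a protein of mitochondrial cristae. Ndufab1 went from 4332 ± 506 in wild type to 2610 ± 247 in deficient arrays (adjusted p = 0.0365 by limma). The genes most like Hspb7 were Nav3 (0.998), Edc3 (0.994) and Ppig (0.993), of which Ppig stood at 151 ± 9.81 and 313 ± 33.9 (adjusted p = 0.0259). On the mean of all probe sets of a gene, Ndufab1 differed by -0.50 and Ppig by 0.51, and neither was called (adjusted p = 0.149 and 0.251). The genes most like Hspb2 were Smdt1 (0.992), Ppp1r14a and Pomt1, and those of Hspb3 were Elof1 (0.997), Mrpl24 and Trappc2l. Those of Hspb1 were Col4a2 (0.992), Smim4 and Tdrd3, and those of Hspb8 were Irgq (0.985), Tub and C2. Those of Cryab were Mccc2 (0.992), Aqp8 and Gpr174, and those of Bag3 were Lias (0.994), Mrps9 and Hnf4aos. These are the closest of 13104 genes over 6 arrays that share a group structure.

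The promoters of the members that moved, and of Hspb1 as a classical heat shock gene, are shown to set the letters of the heat shock element beside the values above. Each is the run of 250 bases before an annotated start (RefSeq, GRCm38.p6, plus strand): chr4:141420529-141420778 for Hspb7, chr7:30553051-30553300 for the second annotated start of Hspb6 and chr5:135887669-135887918 for Hspb1. Capitals mark 2-unit heat shock elements and TATAAA.
Hspb7: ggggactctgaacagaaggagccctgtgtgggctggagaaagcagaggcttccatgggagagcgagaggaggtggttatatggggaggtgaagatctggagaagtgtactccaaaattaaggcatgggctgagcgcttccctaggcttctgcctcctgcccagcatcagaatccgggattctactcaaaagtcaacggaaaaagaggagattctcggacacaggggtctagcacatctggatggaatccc
Hspb6: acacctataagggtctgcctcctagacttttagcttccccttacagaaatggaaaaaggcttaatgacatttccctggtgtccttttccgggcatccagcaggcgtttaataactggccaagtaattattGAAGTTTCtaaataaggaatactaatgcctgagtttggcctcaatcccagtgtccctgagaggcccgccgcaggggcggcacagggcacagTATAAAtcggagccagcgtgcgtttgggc
Hspb1: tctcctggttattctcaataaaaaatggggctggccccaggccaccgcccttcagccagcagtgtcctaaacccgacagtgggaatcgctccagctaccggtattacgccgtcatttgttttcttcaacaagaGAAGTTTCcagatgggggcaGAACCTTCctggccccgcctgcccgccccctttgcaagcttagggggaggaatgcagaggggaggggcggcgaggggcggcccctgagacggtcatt

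RefSeq gave 7 windows of 300 bases, from 250 before to 50 after a start, for 6 of the 8 genes, Hspb2 and Cryab not among them. The 2-unit heat shock element was searched as GAANNTTC and TTCNNGAA, letters that read the same on both strands, and matched 5 of the 7 windows and 5 of the 6 genes. Of 32851 mouse windows of the same length, 15.1% held it. Hspb1 had matches starting 117 and 97 bases before the start, Hspb6 had 1 at 120 bases before its second start, and Hspb3 had 1 at 224. In Hspb8 and Bag3 the match began 2 and 42 bases past the start. The window of Hspb7 held none, and of the 2 windows of Hspb6 the first held none and the second held 1. The element extended by 1 more unit was in 0 of the 7 and in 0.603% of all windows. TATAAA, on either strand, was in the windows of Hspb3 and of the second start of Hspb6, as in 13.6% of all. The E-box CANNTG was in 4 of the 6 genes and in 72.3% of all windows. A match is a string of letters and not a bound site.

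Of 31 listed heat shock chaperones, co-chaperones and factors 29 were tested. By limma 0 rose and 0 fell, 4 had an unadjusted p under 0.05 (18.9% over all genes), and the median log2 fold change was -0.14 beside 0.024 over all genes. Hsf1, the heat shock factor, and Hsp90ab1 had no probe set with a single gene symbol. The stress-inducible Hsp70 gene Hspa1b read 429.9, 469.2 and 94.9 in wild type and 244.5, 183.3 and 307.9 in deficient arrays. Its means were 331 ± 206 and 245 ± 62.3 (adjusted p = 0.892 by limma). Hspa1a read 232, 253.1 and 55.1 in wild type and 75.4, 93.1 and 165.2 in deficient arrays (adjusted p = 0.646). In both, wild type replicates 1 and 2 lay above every deficient array and wild type replicate 3 below every one. The constitutive Hspa8, which works with Bag3, stood at 5519 ± 1316 and 5631 ± 479 (adjusted p = 0.907). The smallest p value was that of the methyltransferase gene Smyd1, at 1040 ± 218 and 521 ± 133 (adjusted p = 0.0629 by limma). Smyd1 passed with a block for Y-linked transcripts (0.0226), a fit that called 8.73% of all genes, and without deficient replicate 3 (0.0348). The Hsp70-Hsp90 adaptor gene Stip1 came next, at 303 ± 26.4 and 214.9 ± 2.66 (adjusted p = 0.184). Of the other genes listed beside the family, Cryaa, Hspb9 and Odf1 were below the filter at 0.9 to 10.6 in all arrays. Hspb11 read 102.4 to 129.6 and differed by -0.018 (adjusted p = 0.974).

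Among 16 genes of the BAG family and of chaperone-assisted selective autophagy, 0 rose and 0 fell by limma, 2 had an unadjusted p under 0.05 (18.9% over all genes), and the median was 0.062. The filamin C gene Flnc, the client of Bag3 and of Hspb7, read 448.3, 174.3 and 316 in wild type and 857.2, 669.5 and 2361.7 in deficient arrays. The groups did not overlap, and deficient replicate 3, where Bag3 was also highest, stood far above the others. The log2 fold change was 1.87 (SE 0.46, adjusted p = 0.0647). It passed by limma with a block for Y-linked transcripts (adjusted p = 0.0115), a fit that called 8.73% of all genes. Without deficient replicate 3, and with the filter by mean log2 value, the brightest probe set was chosen anew. A different Flnc probe set from the one read above then stood for the gene. Flnc passed in these fits, at 1.04 (adjusted p = 0.0242) and 1.39 (0.0423), which are not values of the probe set read above. Vps16, of the complex that tethers autophagosomes to lysosomes, stood at 75.5 ± 16.4 and 126 ± 7.66 (adjusted p = 0.121). The ubiquitin ligase gene Stub1, which acts with Bag3, differed by -0.016 (adjusted p = 0.974).

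Structural proteins that small heat shock proteins bind, and their Z-disc neighbours, included called genes in both directions. Among the 13 tested, 2 genes rose and 1 fell, beside 1.25% and 1.44% over all genes, and the remaining 10 were not called. Of the 13, 8 had an unadjusted p under 0.05 (18.9% over all genes), and the median was 0.51. Csrp3, a muscle LIM protein of the Z-disc, rose from 1012 ± 284 to 2681 ± 90.5 (adjusted p = 0.0118), and Actn2, the alpha-actinin of the Z-disc, from 2091 ± 284 to 3989 ± 871 (adjusted p = 0.0355). Ldb3 fell from 7466 ± 399.6 to 4480 ± 369 (adjusted p = 0.0197). Desmin, the filament that Cryab protects, stood at 3619 ± 745 and 4674 ± 453 (adjusted p = 0.272). The highest adjusted p with 1 library left out was 0.0658 for Csrp3 and 0.107 for Ldb3, without deficient replicate 2 and wild type replicate 1, and 0.142 for Actn2 without wild type replicate 2. Ldb3 and Actn2 also lost their calls with no filter (adjusted p = 0.0577 and 0.0606) and without the intensity trend (0.09 and 0.0891). On the mean of its probe sets Ldb3 differed by -0.40 (adjusted p = 0.276).

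**Figure D5:**
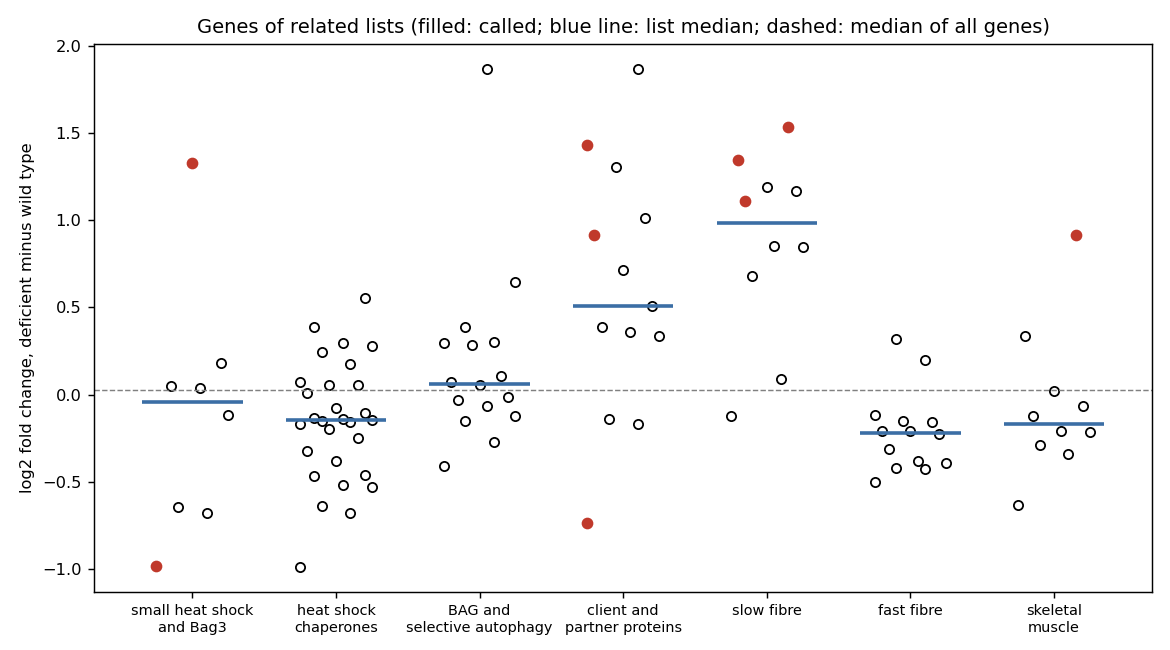
Log2 fold change, deficient minus wild type (vertical axis), of each tested gene of 7 lists (horizontal axis, points spread sideways for clarity), with filled points for called genes, a blue line at each list's median and a dashed line at the median of all genes. The small heat shock genes spread from -0.98 to 1.32 around a median of -0.040, the chaperones lie around -0.14 with none called, and the slow fibre genes lie around 0.98.

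Some fibre type genes and cell type markers also differed in signal between the groups. Among 10 slow fibre genes limma called 3 as higher and 0 as lower, beside 1.25% and 1.44% over all genes. Of the 10, 8 had an unadjusted p under 0.05 (18.9% over all genes), and the median was 0.98. Myl2 and Myl3 did not pass, with log2 fold changes of 0.088 and -0.12 (adjusted p = 0.864 and 0.837 by limma). The summed signal of the 10 was 10590 to 14785 in wild type and 15830.7 to 25612.9 in deficient arrays. Myoz2 (adjusted p = 0.0148), Tnni1 (0.0197) and Casq2 (0.0197) were the genes that rose, and each lost its call by limma without wild type replicate 1, wild type replicate 2 or deficient replicate 2 (adjusted p up to 0.0999). Of 14 fast fibre genes 0 rose and 0 fell by limma, 6 had an unadjusted p under 0.05 (18.9% over all genes), and the median was -0.22. Of the 14, 12 had a negative fold change, beside 6213 of the 13104 genes tested. The summed signal of the 14 was 152588.5 to 157689.7 in wild type and 110722.7 to 148888.1 in deficient arrays. Myoz1 and Mybpc2 had the smallest p of the 14 (adjusted p = 0.0877 and 0.14). Myoz1 passed with a block for Y-linked transcripts (adjusted p = 0.0351), a fit that called 8.73% of all genes. It also passed without deficient replicate 3 (0.033) and on the mean of its probe sets, at -0.82 (0.0478). The 8 markers of regenerating fibres summed to 290.7 to 728.6 in wild type and 2388.3 to 5068.8 in deficient arrays. Limma called 4 of these 8 as higher (1.25% of all genes), while Myod1 differed by -0.043 (adjusted p = 0.958). The 8 macrophage markers summed to 2640.9 to 3935.7 in wild type and 4161.2 to 11512.6 in deficient arrays. All 8 macrophage markers had a positive fold change. Limma called 1 of them, Mpeg1 (1.25% of all genes were called higher), and 4 did not overlap between groups (24.7% of all genes, either direction). All 8 had an unadjusted p under 0.05 by limma (18.9% over all genes), and their median log2 fold change was 1.24. Lyz2 in deficient replicate 3 (1162.4) lay inside its wild type range (988.8 to 1487.5). The 4 brown adipocyte markers summed to 1084.1 to 2863.5 in wild type and 418.4 to 698.1 in deficient arrays. Of these Ucp1 and Cidea fell, while Elovl3 and Ppargc1a did not pass (log2 fold changes of -0.90 and 0.052). Smooth muscle also expresses Hspb6, and the sums of its 6 markers, of which Acta2 was the largest part, overlapped (2295 to 3678.7 and 2397 to 3541.3). Of the 5 tested 0 were called by limma, 1 had an unadjusted p under 0.05 and 4 had a negative fold change. Smtn, the smoothelin gene, did not overlap, at 569.4, 415.8 and 470 in wild type and 264.7, 366.9 and 196.9 in deficient arrays (log2 fold change -0.81, adjusted p = 0.11). No marker read on the array was at 0 in all arrays. The part of these shifts in Hspb7 and Hspb6 was not tested, and in whole muscle fewer cells of a type cannot be told apart from less RNA per cell.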

How the data were processed

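Sample titles gave the group and the replicate number. Total RNA was extracted with TRIzol and RNeasy columns, per the labels' protocols. The authors deposited a linear intensity for each probe set on each array. The summary method behind it was not given in the sources used here. Array medians of log2(signal + 16) differed by 0.226, under the limit of 0.5 for centring, so the values were used as deposited.

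Of the 45101 probe sets, 64 controls were left out, and 34945 had exactly 1 gene symbol, updated through Entrez identifiers to RefSeq (GRCm38.p6). Probe sets with a mean signal below the 40th percentile (15) did not enter, and the brightest remaining probe set stood for its gene. The comparison used lmFit and eBayes with a trend on intensity (limma 3.58.1, R 4.3.3, the data.table package at 1.17.8), two-sided and without a block. The model fit was tested on simulated data.

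The members and lists were chosen with earlier results of these data known, so counts over them are descriptions. Named genes were the members, the called genes of each list (at most 4, otherwise the 2 with the smallest p) and the 3 genes most correlated with each member, with Hsf1 always. Hspa1a, Hspa1b, Hspa8, Stub1, Des, Myl2, Myl3 and the single cell type markers were added after their values were seen. Alternatives were 18 planned and 2 added after seeing the data, the filter by mean log2 value and the removal of wild type replicates 1 and 2. Muscle was isolated from each mouse individually, per the series' design text.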

Additional observations from a re-analysis of the deposited data

How the results depend on the processing

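Hspb7 kept its direction in all 20 alternatives (log2 fold change 1.01 to 1.44) and its call in 18, and Hspb6 kept its direction in all 20 (-1.09 to -0.79) and its call in 15. As reported, limma called 353 genes, both among them. With single libraries left out, 64 to 665 genes and 1 to 2 of the 8 members were called. The count over all genes was 216 with no filter, 159 without the intensity trend and 1144 with Y-linked transcripts as a block. Of the members, 1 was called on the mean of all probe sets and 1 without the trend. Without wild type replicates 1 and 2 together, 21 genes and 0 members were called, with 1 wild type array left. The added filter by mean log2 value called 362 genes and the same 2 members.

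With the replicate number as a block 855 genes were called, and Hspb2 (adjusted p = 0.0498), Smyd1 (0.0098) and Flnc (0.0074) passed. Same-numbered arrays deviated together with a correlation of 0.15, 0.067 and 0.30, not all above 0.1, so the numbers were not taken as pairs. Median centring turned Bag3 to -0.0031, and the mean of all probe sets turned Hspb8 to -0.054. With single libraries left out, Bag3 ran from -0.18 to 0.24, Hspb8 from -0.18 to 0.19, Hspb1 from -0.053 to 0.35 and Hspb11 from -0.10 to 0.052, and without wild type replicates 1 and 2 together Hspb11 was 0.10, Hspb1 0.64 and Hspb8 0.50. None of these passed in any alternative. Causes were not tested.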

Other observations

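The most frequent match to the heat shock element among the members' windows was GAAGTTTC, in 4 of the 7 windows, those of Hspb1, Hspb8 and Bag3 and the second of Hspb6. It was picked because it recurs there, so its share of all 32851 windows, 1.21% on either strand, is no comparison. The matches lay 117 and 120 bases before the start in Hspb1 and Hspb6, and just past it in Hspb8 and Bag3.

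On the brightest probe sets, deficient replicate 3 held the lowest value of Hspb2, Hspb3 and Hspb6 among the deficient arrays. It held the highest of Hspb1, Hspb7, Cryab, Bag3 and Flnc there. Its Hspb3 signal was 245.3, beside 729.6 and 770.1 in the other deficient arrays. On Cryab 1416455_a_at and on Hspb7 1421290_at and 1421289_at, deficient replicate 1 was the highest instead (3258.6, 832.9 and 215.6).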
